A study of Mus musculus with 46 samples.

Results

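A set of 8 genes that mark regulatory T cells, Foxp3, Il2ra, Ikzf2, Ikzf4, Ccr8, Il10, Lrrc32 and Nrp1, was followed through bulk RNA-seq of MC-38 mouse colon carcinoma, and they are 8 of the 48795 genes in the deposited table. They were taken by name, with earlier results of these data known, and all 8 are reported whatever their values. They are given beside Cd4, the coreceptor of helper T cells, and Cd3e, a chain of the T-cell receptor complex. The study compared blockade of PD-1 by an antibody with conditional deletion of its gene, Pdcd1. The 46 samples fall into 8 groups. They comprise 3 cultures of MC-38 cells, 3 untreated tumors labelled baseline, and subcutaneous tumors of WT female mice 8 to 10 weeks old given PD-1 antibody (muDX400, 5 mg/kg) or isotype antibody. Of these antibody-study tumors, 5 per arm were taken after 1 dose (day 11 after implant) and 5 per arm after 2 doses (day 15). A further 10 tumors came from PD-1cKO mice, which carry ROSA26creERT2 and Pdcd1 fl/fl with loxP sites around exons 2 and 3, and 10 from littermates labelled WT. Per the study's methods these mice were also female and 8 to 10 weeks old. Mice of both genotypes received tamoxifen at 40 mg/kg on 5 days, and the labels place collection at day 28 whereas the methods place it at day 22. The Rosa26 promoter is active in most tissues, so deletion was not restricted to T cells.

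Regulatory T cells are CD4+ T cells that restrain other immune cells and are common in tumors. Their program depends on FOXP3, a transcription factor encoded on the X chromosome that acts with partners such as Helios (Ikzf2) and Eos (Ikzf4). The cells take up IL-2 through CD25 (Il2ra), secrete IL-10, and display CCR8, GARP (Lrrc32) and neuropilin-1 (Nrp1), but none of these products belongs to them alone: activated T cells use CD25, macrophages make IL-10, and endothelial and tumor cells use neuropilin-1. In bulk tissue, fewer cells of a type and less RNA per cell cannot be told apart.

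Values were FPKM, fragments scaled to gene length and to the mapped total, and the depth of each library is not in the table: the study's methods give only a range of mapped reads over all samples. Summed FPKM of the 8 T-cell markers, which was 6.94 to 7.56 in the cultures, was 10.7 to 18.8 in isotype tumors and 33.5 to 125 in PD-1 Ab tumors at day 15, and 11.2 to 37.2 in tumors labelled WT and 26.1 to 140 in those labelled PD-1cKO. The isotype library of day 11 numbered replicate 1 stood apart, with 54.6% of its FPKM on mitochondrial genes against 3.45 to 4.31% in the other 4 of its group. Short noncoding RNAs held 30.2 to 66.5% of the FPKM of the 20 tumors of the deletion experiment and at most 0.0746% elsewhere, so levels were not tested between the 2 experiments. Pdcd1 itself was at 3.30 ± 1.46 FPKM (SD, n = 10) in tumors labelled WT and 9.61 ± 4.51 in those labelled PD-1cKO, and relative to Cd3e the mean FPKM ratio was 2.32 and 1.53. That whole-gene value covers exons outside the deleted part, so it does not check the genotype labels.

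The 250 bases before an annotated start of Foxp3, Il2ra and Ccr8 are printed from RefSeq (mouse GRCm38.p6, plus strand), with matched motif letters in capitals. Entries were at hand for 4 of the 8 genes, Foxp3, Il2ra, Ccr8 and Nrp1, and not for Ikzf4 or Lrrc32.
Foxp3, chrX:7580233-7580482: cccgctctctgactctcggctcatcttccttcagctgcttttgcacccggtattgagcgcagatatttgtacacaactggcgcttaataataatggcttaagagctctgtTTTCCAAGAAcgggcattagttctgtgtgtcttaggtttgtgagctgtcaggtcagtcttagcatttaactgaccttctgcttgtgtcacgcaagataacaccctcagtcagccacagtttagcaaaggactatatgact
Il2ra, chr2:11642542-11642791: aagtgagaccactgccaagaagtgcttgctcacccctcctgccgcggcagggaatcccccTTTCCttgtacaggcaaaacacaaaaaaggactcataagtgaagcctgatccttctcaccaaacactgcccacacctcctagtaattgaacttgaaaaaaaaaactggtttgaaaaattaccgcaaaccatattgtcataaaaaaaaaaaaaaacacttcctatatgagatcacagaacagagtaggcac
Ccr8, chr9:120091883-120092132: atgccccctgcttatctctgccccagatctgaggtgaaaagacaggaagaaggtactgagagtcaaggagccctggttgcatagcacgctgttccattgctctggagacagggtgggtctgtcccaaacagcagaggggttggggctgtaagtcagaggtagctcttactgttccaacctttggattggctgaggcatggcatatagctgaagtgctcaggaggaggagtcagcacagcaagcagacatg
In these windows 4 motifs were searched on both strands: TTCNNNGAA (STAT), TGTGGT (RUNX), TGANTCA (AP-1) and GGAAA (NFAT core). The printed Foxp3 window held 1 STAT match, which overlapped 1 reverse-strand NFAT core match. A second annotated start of Foxp3 has the window chrX:7579426-7579675, not printed here, which held 1 NFAT core match and 0 STAT matches. The STAT motif was found in 7.02% of 32851 windows of the same length and the NFAT core in 55.6%. The Il2ra window held 1 NFAT core match, and the Ccr8 window held no match to any of the 4 motifs. RUNX matches occurred in 14.0% of all windows and AP-1 matches in 6.75%. These are matches of letters only.

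Cultured MC-38 cells, which hold no T cells by design, separated the 8 genes into those read only in tumor tissue and those read in the tumor cell line as well. Of the 8 T-cell markers, Cd3d, Cd3e, Cd3g and Cd2 were listed at 0 in all 3 cultures, and Cd247, Cd5, Cd28 and Lck made up their summed 6.94 to 7.56 FPKM. Il2ra and Ccr8 were also listed at 0 in all 3, Ikzf4 was above 0 in 1 of 3 (0.0092 FPKM), and Il10 in 1 of 3 (0.0276 FPKM). Foxp3, however, was at 1.10, 1.01 and 0.956 FPKM in the cultures. In the 5 isotype tumors of day 15 it was at 0.796, 0.719, 1.53, 1.03 and 0.988 FPKM, so the ranges overlapped. The log2 difference, tumor minus culture, was -0.05 with an SE of 0.25 (limma, adjusted p = 0.869). Ikzf2 was at 3.43, 3.0003 and 3.83 FPKM in culture, above all 5 of those tumors, at 2.88, 2.89, 1.75, 2.73 and 1.74, although its difference did not pass (log2 difference -0.52, SE 0.22, limma adjusted p = 0.0729). Nrp1, a receptor for semaphorins and VEGF, was the most abundant of the 8 genes, at 13.0, 13.8 and 13.9 FPKM in culture against 13.4 ± 7.22 (SD, n = 5) in the isotype tumors. Lrrc32, whose product GARP anchors latent TGF-beta, was at 0.133, 0.209 and 0.197 FPKM in culture and 2.39, 2.13, 1.45, 1.44 and 1.97 in the isotype tumors, with no overlap.

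Of the 7 members tested in that comparison, 3 were higher in isotype tumors than in culture (Il2ra, Il10 and Lrrc32) and 0 were lower, where 18.7% of 18178 genes tested were higher and 14.6% were lower at a Benjamini-Hochberg adjusted p under 0.01. Lrrc32 was 6.99-fold higher on the log2(FPKM + 0.1) scale (limma adjusted p = 1.13e-05). The adjusted p was 1.42e-05 for Il2ra and 0.000116 for Il10. Ccr8 was at 0.434, 0.296, 0, 0.345 and 0.208 FPKM in the isotype tumors and did not pass (limma adjusted p = 0.0261). Ikzf4 was below the level filter and was not tested. Culture and tumor also differ in which cells are present, so these values place the RNA and do not compare tumor cells with each other.

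**Figure D1:**
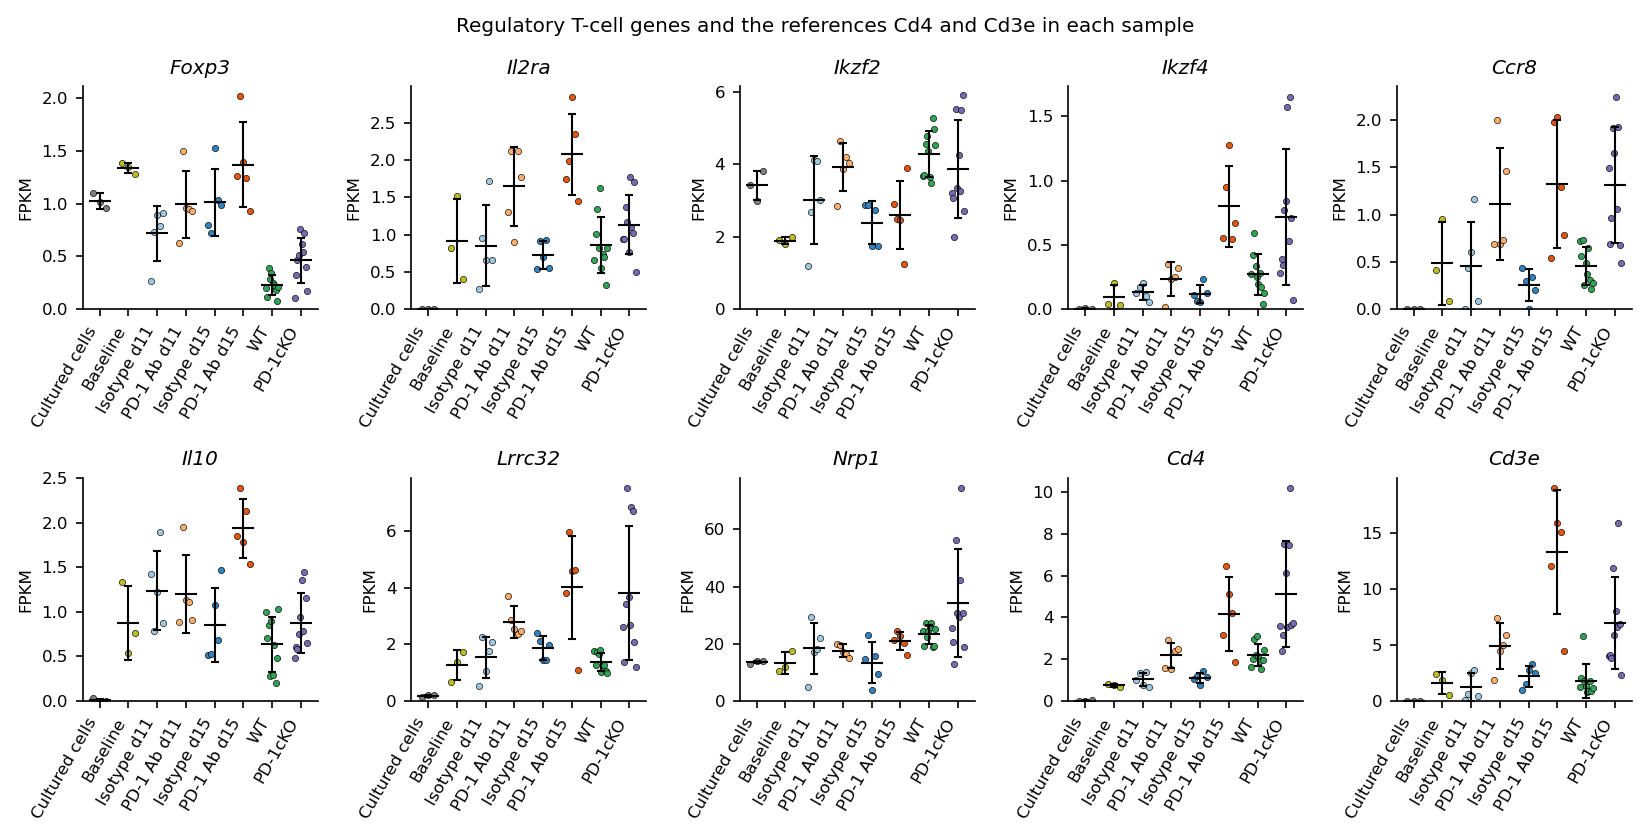
FPKM of the 8 genes, Cd4 and Cd3e in each of the 46 samples (points), by group, with mean and SD (bars). Foxp3, Ikzf2 and Nrp1 lie well above 0 in the 3 cultures, where Il2ra, Ccr8 and Cd3e are listed at 0.

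The Foxp3 row shares sequence with its neighbors. The gene lies at chrX:7573644-7595245 on the plus strand of GRCm38 in GENCODE M21, and 590 of its 4577 exon bases (12.9%) are also exon of Ccdc22, a widely used gene on the opposite strand at chrX:7593809-7605517. Flicr, a noncoding RNA of the same strand, shares 853 bases (18.6%), Gm36995 373 and Ppp1r3f 266. The libraries were stranded, but whether counting used the strand is not given in the sources used here. Ccdc22 was at 10.2 ± 0.401 FPKM in the cultures (SD, n = 3) and Flicr at 0.278 ± 0.117. The FPKM ratio of Foxp3 to Ccdc22 was 0.1004 ± 0.00329 in culture, 0.0982 ± 0.00893 in isotype tumors of day 11 and 0.0979 ± 0.0248 at day 15. It was 0.118 ± 0.0398 in PD-1 Ab tumors of day 11 and 0.143 ± 0.0415 in those of day 15, and 0.143 ± 0.00276 in the 3 untreated baseline tumors. In the deletion experiment the ratio was 0.0200 ± 0.00911 (SD, n = 10) in tumors labelled WT and 0.0406 ± 0.0199 in those labelled PD-1cKO, all below the cultures. The part of Ccdc22 reads in the Foxp3 values was not tested. The other 7 genes share at most 1.24% of their exon bases with another gene: Il2ra (chr2:11642807-11693193), Ikzf2 (chr1:69531214-69687245), Ikzf4 (chr10:128630843-128645991), Ccr8 (chr9:120092114-120094906), Il10 (chr1:131019845-131024974), Lrrc32 (chr7:98489283-98502181) and Nrp1 (chr8:128358604-128503363).

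**Figure D2:**
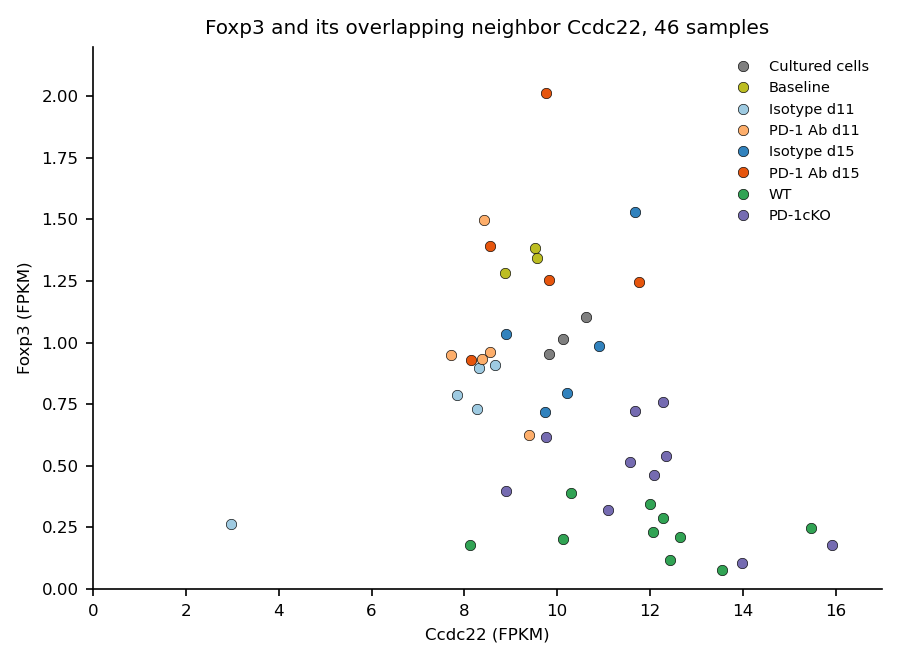
Foxp3 against Ccdc22, both in FPKM, in each of the 46 samples, colored by group. The cultures lie among the antibody-study tumors at Foxp3 near 1.02 FPKM, and the 20 tumors of the deletion experiment lie lower for a similar Ccdc22.

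From the lowest to the highest group mean, Foxp3 was at 0.230 FPKM in tumors labelled WT, 0.462 in those labelled PD-1cKO, 0.718 in isotype tumors of day 11, 0.994 in PD-1 Ab tumors of day 11, 1.01 in isotype tumors of day 15, 1.02 in culture, 1.34 at baseline and 1.37 in PD-1 Ab tumors of day 15. In this order the ranges of neighboring groups overlapped, except between culture and baseline (1.38, 1.34 and 1.28 FPKM). Cd4 had another order, with a mean of 0.0076 FPKM in culture, 0.741 at baseline, 1.02 and 1.11 in the isotype groups, 2.18 in PD-1 Ab tumors of day 11, 2.19 in tumors labelled WT, 4.16 in PD-1 Ab tumors of day 15 and 5.13 in tumors labelled PD-1cKO. Both orders mix the antibody and deletion experiments, whose libraries differ in short noncoding RNA as given above. No level was tested between them.

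After 2 doses of PD-1 antibody, Il2ra and Ikzf4 were higher and Foxp3 was not distinguishable from isotype. Of the 8 genes, 2 rose and 0 fell, where 5.37% of 18352 genes tested rose and 1.08% fell. The median log2 difference was 1.04 over the 8 genes and -0.01 over all genes tested. Il2ra was at 1.74, 1.98, 2.85, 2.34 and 1.46 FPKM in PD-1 Ab tumors and at 0.537, 0.912, 0.708, 0.927 and 0.552 in isotype tumors. All 5 treated tumors lay above every isotype tumor, and the difference was 2.62-fold (log2 1.39, SE 0.24, limma adjusted p = 0.00331). Ikzf4 was at 0.557, 0.953, 1.28, 0.543 and 0.671 FPKM against 0.113, 0.0665, 0.0606, 0.233 and 0.124, again without overlap. Its difference was 4.07-fold (log2 2.02, SE 0.32, limma adjusted p = 0.00212). The Il2ra call was lost, at adjusted p of 0.0106 to 0.0133, when isotype replicate 1 or 5 or PD-1 Ab replicate 2 or 3 was left out, whereas Ikzf4 passed in all 10 such fits.

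Ccr8 and Il10 were also separated between the arms but missed the threshold. Ccr8, a chemokine receptor, was at 0.543, 1.98, 2.03, 1.29 and 0.782 FPKM in PD-1 Ab tumors of day 15, and its 5 isotype values are given above. The log2 difference was 2.05 with an SE of 0.49 (limma adjusted p = 0.0148). Il10, an immunosuppressive cytokine, was at 1.85, 2.39, 1.79, 2.13 and 1.53 FPKM against 0.511, 0.523, 1.07, 0.685 and 1.47, so the highest isotype tumor came close to the lowest treated one. Its log2 difference was 1.19 with an SE of 0.28 (limma adjusted p = 0.0150), and it passed at 0.00893 without isotype replicate 5. In all, 4 of the 8 genes had every treated tumor above every isotype tumor, which 8.19% of genes tested also had.

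The transcription factor Foxp3 was at 1.26, 2.01, 1.39, 1.25 and 0.928 FPKM in PD-1 Ab tumors of day 15, and 1 of the 5 lay above every isotype tumor. The log2 difference was 0.40 with an SE of 0.26 (limma adjusted p = 0.287), and relative to Ccdc22 it was 0.50 with an SE of 0.27 (adjusted p = 0.254). Ikzf2, the gene of Helios, was at 2.90, 2.48, 2.47, 1.26 and 3.89 FPKM, overlapping the isotype tumors on both sides (log2 difference 0.07, SE 0.28). Lrrc32 was at 3.81, 5.99, 4.60, 4.64 and 1.08 FPKM. In 4 of the 5 treated tumors Lrrc32 exceeded every isotype tumor, and in replicate 5 it was below all of them. With all tumors the log2 difference was 0.90 (limma adjusted p = 0.115), and without PD-1 Ab replicate 5 it was 1.31 (0.000877). Nrp1 was at 21.3, 24.6, 22.6, 20.3 and 16.0 FPKM against 14.7, 23.2, 3.86, 15.7 and 9.56, and the arms overlapped (log2 difference 0.85, adjusted p = 0.126). Beside these values, Cd4 rose by a log2 difference of 1.72 (SE 0.30), Cd3e by 2.52 (SE 0.40) and Cd8a, the cytotoxic T-cell coreceptor, by 3.06 (SE 0.35), and 7 of 9 macrophage and monocyte markers also rose. Their part in the Il2ra, Ikzf4 and Il10 values was not tested.

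After 1 dose (day 11), 0 of the 8 genes passed, where 0.0% of 17779 genes did, although 1084 genes had an unadjusted limma p under 0.05. Of the 8, 3 were among these. Il2ra was at 1.30, 2.12, 0.906, 2.12 and 1.78 FPKM in PD-1 Ab tumors and at 0.267, 0.953, 0.657, 1.72 and 0.665 in isotype tumors (log2 difference 1.00, SE 0.42, adjusted p = 0.752). Lrrc32 was at 3.72, 2.87, 2.54, 2.35 and 2.48 FPKM against 0.531, 2.25, 1.05, 1.76 and 2.09, and it was the gene of the 8 without overlap, as were 3.09% of genes tested (log2 difference 0.95, SE 0.37, adjusted p = 0.697). Ccr8 was at 0.696, 2.001, 0.692, 0.735 and 1.46 FPKM against 0, 0.442, 0.606, 1.16 and 0.0906 (log2 difference 1.51, SE 0.64, adjusted p = 0.752). Foxp3 was at 0.625, 1.499, 0.962, 0.951 and 0.932 FPKM against 0.266, 0.729, 0.896, 0.786 and 0.911, which overlapped (log2 difference 0.46, SE 0.36). The value of 0.266 belongs to the mitochondria-rich isotype library, and without it the Foxp3 difference was 0.19, that of Lrrc32 0.65, that of Il2ra 0.70 and that of Ccr8 1.02, and the median over all genes moved from 0.25 to -0.03. In that fit 12 of 17902 genes passed and 0 of the 8.

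Tumors labelled PD-1cKO had higher Ccr8 and Lrrc32 than those labelled WT. Of the 8 genes, 2 rose and 0 fell in tumors labelled PD-1cKO, where 7.07% of 18545 genes tested rose and 9.51% fell. The median log2 difference was 0.59 over the 8 genes and -0.18 over all genes. Ccr8 ranged from 0.491 to 2.25 FPKM (median 1.28, n = 10) in tumors labelled PD-1cKO and from 0.212 to 0.737 (median 0.432, n = 10) in those labelled WT. In 7 of 10 PD-1cKO tumors it exceeded every WT tumor, and the difference was 2.43-fold (log2 1.28, SE 0.27, limma adjusted p = 0.00236). Lrrc32 ranged from 1.22 to 7.54 FPKM (median 3.05) against 0.981 to 1.81 (median 1.27). It exceeded every WT tumor in 8 of 10, and the difference was 2.29-fold (log2 1.19, SE 0.29, limma adjusted p = 0.00471). The Lrrc32 call was lost without PD-1cKO replicate 7 (log2 difference 1.07, adjusted p = 0.0102).

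Foxp3 ranged from 0.107 to 0.758 FPKM (median 0.490) in tumors labelled PD-1cKO and from 0.0783 to 0.389 (median 0.222) in those labelled WT. It was above every WT tumor in 7 of 10, yet did not pass (log2 difference 0.71, SE 0.26, limma adjusted p = 0.0390), and relative to Ccdc22 it differed by 0.70 (SE 0.32, adjusted p = 0.108). Ikzf4 ranged from 0.0689 to 1.65 FPKM (median 0.619) against 0.0407 to 0.597 (median 0.261), with 5 of 10 above every WT tumor. Its log2 difference of 0.97 (SE 0.36) had an adjusted p of 0.0419, and without PD-1cKO replicate 10 it was 1.19 (0.00823). Ikzf2 ranged from 1.99 to 5.93 FPKM (median 3.31) against 3.48 to 5.27 (median 4.46). Of the PD-1cKO tumors, 6 lay below every WT tumor and 3 above (log2 difference -0.21, SE 0.17, adjusted p = 0.352). Il2ra had medians of 1.06 and 0.782 FPKM, Il10 of 0.766 and 0.665, and Nrp1 of 30.0 and 24.4, and these 3 genes did not pass (adjusted p of 0.207, 0.167 and 0.191). Beside these, Cd4 was higher by a log2 difference of 1.08, Cd3e by 1.96, and 5 of 9 macrophage and monocyte markers rose. Of markers of platelets and endothelium, cells that also use Lrrc32, 2 of 3 and 2 of 6 tested rose, with summed levels of 13.3 to 31.2 and 22.9 to 51.5 FPKM in tumors labelled WT and 21.3 to 88.1 and 32.7 to 83.1 in those labelled PD-1cKO. Of 6 fibroblast markers 3 rose (602 to 1341 and 1372 to 7098 FPKM summed). The part of these cells in the Ccr8 and Lrrc32 values was not tested.

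The sample identifiers of this experiment run in 3 consecutive stretches, of which 1 held 7 PD-1cKO tumors and no WT tumor, another 1 PD-1cKO and 9 WT, and the last 2 PD-1cKO and 1 WT. What these stretches stand for is not stated. With the stretch as a covariate, 0 genes passed limma's threshold and 7094 had an unadjusted p under 0.05, while the log2 difference was 1.44 for Ccr8 (adjusted p = 0.0335), 1.54 for Lrrc32 (0.0333) and 0.90 for Foxp3 (0.169). Scaling by the median of ratios moved the median of all genes from -0.18 to -0.03 and the call split from 1311 higher and 1763 lower to 1844 and 1534, and it gave log2 differences of 1.42 for Ccr8, 1.35 for Lrrc32 and 0.83 for Foxp3 (0.0221).

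**Figure D3:**
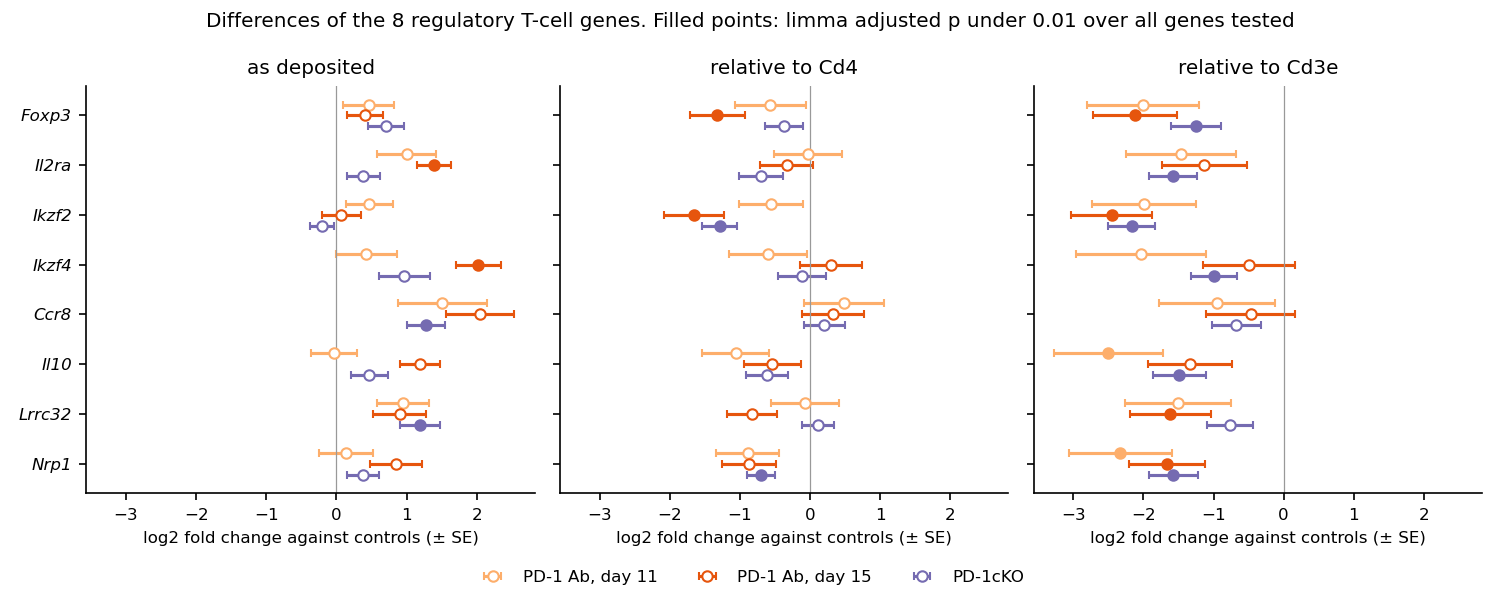
Log2 difference between treated and control tumors with its SE for the 8 genes at day 11, day 15 and in the deletion experiment, as deposited, relative to Cd4 and relative to Cd3e; filled points had an adjusted p under 0.01. As deposited most points lie above 0, while relative to Cd3e every point lies below it.

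Whether the 8 genes kept pace with Cd4 RNA was asked by subtracting the log2 value of Cd4 from that of each gene in the same tumor. Cd4 does not count helper T cells alone, since regulatory T cells are CD4+ too. It also did not follow Cd3e throughout. In the mitochondria-rich isotype library Cd4 was at 0.996 and Cd3e at 0.0455 FPKM, and tumors labelled WT averaged 2.19 and 1.77. Which cells made the Cd4 RNA was not tested. At day 15 Foxp3 and Ikzf2 were lower relative to Cd4, and the other 6 did not pass. The FPKM ratio of Foxp3 to Cd4 was 0.769, 0.605, 1.96, 0.732 and 0.870 in isotype tumors and 0.396, 0.312, 0.271, 0.297 and 0.504 in PD-1 Ab tumors, with no overlap. The difference was -1.32 on the log2 scale (SE 0.39, limma adjusted p = 0.00317), and the 2-sided exact permutation test over tumors gave p = 0.00794, the smallest that 5 against 5 allows. Cd4 itself did not overlap between these arms, so its rise enters this test. The share of all genes that would separate likewise relative to Cd4 was not taken. Without isotype replicate 3 or PD-1 Ab replicate 3 the limma call was lost, at an adjusted p of up to 0.0173. Ikzf2 differed by -1.65 relative to Cd4 (SE 0.43, limma adjusted p = 0.000979; exact permutation p = 0.0238), with overlap between the arms. Il2ra differed by -0.33, Ikzf4 by 0.30, Ccr8 by 0.32 and Il10 by -0.54. Read against the background these calls are common: 2 of 8 genes were lower, and so were 76.4% of 18351 genes tested, with a median of -0.68 for the 8 genes and -1.74 for all genes. In culture Foxp3 was at 1.02 and Ikzf2 at 3.42 FPKM on average with Cd4 at 0.0076, and the part of tumor-cell RNA in these ratios was not tested.

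**Figure D4:**
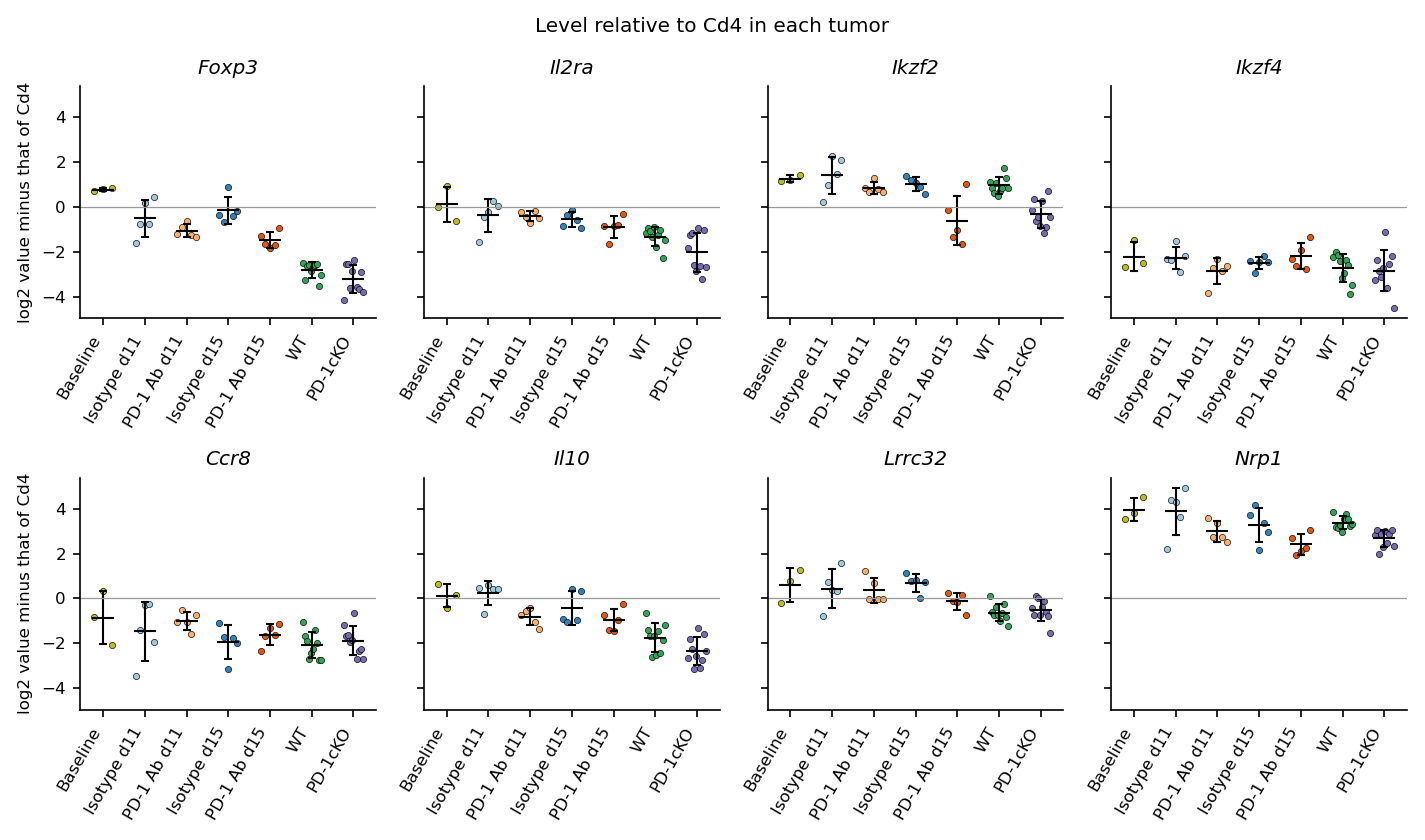
Log2 value of each of the 8 genes minus that of Cd4 in each of the 43 tumors (points), by group, with mean and SD (bars). For Foxp3 the PD-1 Ab tumors of day 15 lie below all 5 isotype tumors of that day, while for Ikzf4 and Ccr8 the arms overlap.

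At day 11 relative to Cd4, 0 of 8 genes passed, as did 0.0% of 17778 genes, with 4980 at an unadjusted p under 0.05. This changed without the mitochondria-rich isotype library, when 55.9% of genes passed and Nrp1 did among the 8 (log2 difference -1.31, limma adjusted p = 0.00255). The mean FPKM ratio of Foxp3 to Cd4 on that day was 0.793 ± 0.479 in isotype tumors (SD, n = 5) and 0.463 ± 0.105 in PD-1 Ab tumors. In the deletion experiment 2 of 8 genes were lower relative to Cd4, where 70.4% of 18544 genes were. These were Ikzf2 (log2 difference -1.29, SE 0.25, limma adjusted p = 0.000446) and Nrp1 (-0.70, SE 0.20, 0.00329), with permutation p of 6e-05 and 8e-05. As deposited neither gene passed (log2 differences -0.21 and 0.38). Cd4 itself exceeded every WT tumor in 9 of 10 PD-1cKO tumors, so its rise enters these tests. The share of all genes with so low a permutation p was not taken. The Foxp3 to Cd4 ratio was 0.104 ± 0.0317 (SD, n = 10) in tumors labelled WT and 0.0980 ± 0.0470 in those labelled PD-1cKO. On the log2 scale with the pseudocount that is a difference of -0.38 (SE 0.27, limma adjusted p = 0.193, permutation p = 0.116), and with a pseudocount of 1 FPKM it was -0.62 (limma adjusted p = 0.00200). In these tumors Foxp3 was at most 0.758 FPKM and Cd4 at least 1.52 FPKM. A pseudocount of 1 FPKM therefore shrinks the Foxp3 change more than that of Cd4, which moves the difference downward. Ccr8 and Lrrc32 differed by 0.20 and 0.11 (permutation p = 0.479 and 0.564).

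Relative to Cd3e, which rose more than Cd4, all 8 genes had differences below 0 in each comparison. At day 15, 4 of 8 genes were lower, as were 87.1% of genes tested: Foxp3 by -2.12 (limma adjusted p = 0.000595), Ikzf2 by -2.45 (3.95e-05), Lrrc32 by -1.62 (0.00586) and Nrp1 by -1.67 (0.00258). In the 10 fits that each left out 1 sample, the Lrrc32 call was lost in 7 (limma adjusted p up to 0.0237). That of Nrp1 was lost in 4 (up to 0.0329). Foxp3 and Lrrc32 did not overlap between the arms (exact permutation p = 0.00794 for each), whereas Ikzf2 and Nrp1 did. Cd3e itself did not overlap between these arms, so its rise enters these separations. The share of all genes without overlap relative to Cd3e was not taken. In the deletion experiment 6 of 8 genes were lower, as were 92.7% of genes tested. Foxp3 differed by -1.25 (limma adjusted p = 0.00161; permutation p = 0.00094), while Ccr8 at -0.68 (0.0619) and Lrrc32 at -0.76 (0.0295) did not pass. Cd3e exceeded every WT tumor in 6 of 10 PD-1cKO tumors, so its rise enters this permutation test too. At day 11, 2 of 8 genes were lower, Il10 by -2.50 and Nrp1 by -2.33 (limma adjusted p = 0.00692 for each), as were 64.7% of genes, but without the mitochondria-rich library 0 of 8 passed, as did 0.151% of genes. Each of these calls was lost in 7 of the 10 fits that left out 1 sample, at limma adjusted p of 0.0214 to 0.0313. Across these relative comparisons 48 permutation tests were run, and their p-values are unadjusted.

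The response to antibody at day 15 and that to deletion were then compared directly as a difference of differences. As deposited, 0 of 8 genes differed, where 0.073% of 19178 genes did (14 genes). The largest among the 8 were Ikzf4, at 1.06 (limma adjusted p = 0.379), and Il2ra, at 1.01 (SE 0.37, adjusted p = 0.224), both toward a larger response to antibody. Foxp3 was at -0.30 (adjusted p = 0.741). Relative to Cd4, 0 of 8 genes and 0.0% of all genes differed by limma, and 1954 genes had an unadjusted p under 0.05. Foxp3 stood at -0.95 (SE 0.44, adjusted p = 0.462) and Lrrc32 at -0.94 (adjusted p = 0.411). Antibody and deletion also differ in day, host and library composition, which cannot be told apart from the mode of PD-1 loss.

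Among the 10 tumors of each genotype, Foxp3 was set against Cd4 and Cd3e. Across tumors labelled WT, Foxp3 and Cd4 had r = 0.62 and rho = 0.71 (permutation p = 0.0542 and 0.0270, both 0.108 after adjustment over the 4 relations), and without the 2 tumors farthest from the median of Cd4 r was 0.21 and rho 0.45; within the 9 tumors of the second identifier stretch r was 0.64. Across tumors labelled PD-1cKO, Foxp3 and Cd3e had r = 0.70 and rho = 0.64 (permutation p = 0.0253 and 0.0545, adjusted 0.101 and 0.109), with r = 0.51 without the 2 farthest tumors and 0.53 within the 7 tumors of the first identifier stretch. Foxp3 and Cd4 had r = 0.56 and rho = 0.49 in the same tumors (adjusted permutation p = 0.124 and 0.208), with r = 0.44 without the 2 farthest tumors and 0.46 within the first stretch. Foxp3 and Cd3e had r = 0.42 and rho = 0.14 in tumors labelled WT (adjusted permutation p = 0.226 and 0.707), with r = 0.12 and, within the second stretch, 0.42. At an adjusted threshold of 0.05, 0 of the 4 relations passed, but with median-of-ratios scaling Foxp3 and Cd3e in tumors labelled PD-1cKO had rho = 0.85 (adjusted permutation p = 0.0111) and r = 0.74 (0.0521).

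**Figure D5:**
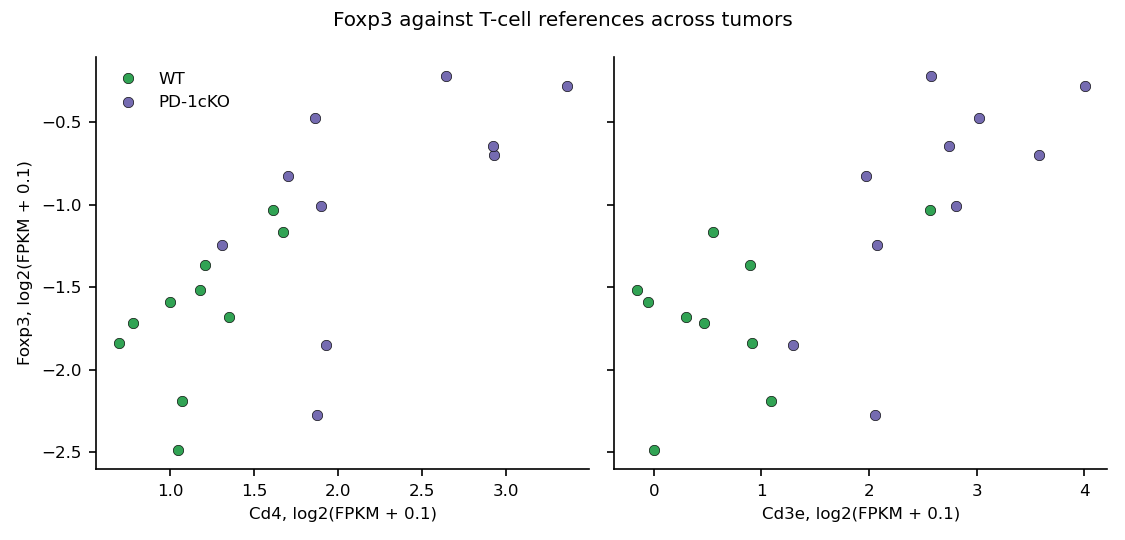
Foxp3 against Cd4 and against Cd3e, each as log2(FPKM + 0.1), in the 10 tumors labelled WT and the 10 labelled PD-1cKO. The PD-1cKO tumors reach higher values on both axes, and within each genotype the points scatter widely (r from 0.42 to 0.70).

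As a description of which genes moved with Foxp3 among tumors of the same group, Pearson's r was taken over 43 tumors after removing group means, for 14863 other genes at 0.5 FPKM or more on average. The highest were Cd80 (r = 0.73), a costimulatory ligand of antigen-presenting cells, Bscl2, Fam169b and Mfsd7a (0.71 each), and Il21r, Tmc8, Arid3b and Sap25 (0.69 each). Cd3e ranked at 63 (0.63), Lrrc32 at 816 (0.51), Il2ra at 1260 (0.48), Cd4 at 1572 (0.45), Il10 at 2677 (0.38), Ccr8 at 2914 (0.37), Nrp1 at 3371 (0.34) and Ikzf2 at 4287 (0.30). Ikzf4 averaged under 0.5 FPKM and was not ranked. The order changed with the tumors used. Of the genes named as highest, only Cd80 and Arid3b were among the 8 highest over the 20 tumors of the deletion experiment. Over the 23 antibody-study and baseline tumors no gene of that list was. In those 23, Cd4 and the ranked members stood from 7830 to 12023 and Cd3e at 400. In the 20 they stood from 268 to 3281 and Cd3e at 308. Ccdc22 had r = 0.16 over all tumors, 0.67 over the 23 antibody-study and baseline tumors, and -0.35 over the 20 tumors of the deletion experiment. Its ranks there were 7140, 1802 and 11377 of 14863. Over the 23 tumors a high r was common: Il2ra, with r = 0.46, ranked only at 7830. The 23 tumors include the mitochondria-rich isotype library, with Foxp3 at 0.266 and Ccdc22 at 2.96 FPKM, each the lowest of its group. The value of r without that library was not taken. The tumors share libraries and the scale set by their summed FPKM, and no test was made.

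Genes that work with the 8 were counted over lists written with earlier results of these data known. Of 19 genes often used with Foxp3 to describe regulatory T cells, 18 were tested, and 9 rose at day 15 and 8 in tumors labelled PD-1cKO, with 0 falling, where 5.37% and 7.07% of all genes tested rose and 1.08% and 9.51% fell. Entpd1, an ectonucleotidase, was at 11.4 ± 2.58 FPKM in isotype and 42.1 ± 11.6 in PD-1 Ab tumors of day 15 (SD, n = 5), and Icos, a costimulatory receptor, at 0.490 ± 0.188 and 5.43 ± 2.90. Tigit, an inhibitory receptor, was at 1.32 ± 0.491 and 9.54 ± 3.80 there. Ctla4, an inhibitory receptor that conventional T cells also use once activated, was at 1.48 ± 0.789 and 3.33 ± 1.13 FPKM in tumors labelled WT and PD-1cKO (n = 10). The median log2 difference of the list was 1.38 at day 15 and 0.63 with deletion, against -0.01 and -0.18 over all genes. Of 8 partners and upstream factors of FOXP3, such as Runx1, Foxo1 and Nr4a1, 0 passed in either comparison, with medians of 0.08 and 0.04 and with 1 and 3 genes at an unadjusted limma p under 0.05. In the Ikaros family, Ikzf3 and Ikzf1 rose in both (log2 differences 2.77 and 1.55 at day 15, 1.65 and 0.96 with deletion), and Ikzf5 did not pass.

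In the IL-2 pathway, 4 of 8 genes tested rose at day 15 and 2 with deletion; the counts of this and the following lists stand beside shares over all genes of 5.37% and 7.07% higher and 1.08% and 9.51% lower. Il2rb, the receptor chain shared with IL-15, was at 4.95 ± 1.84 FPKM in isotype and 30.5 ± 11.6 in PD-1 Ab tumors of day 15, and Il2 itself at 0.0142 ± 0.0318 and 0.0975 ± 0.107. In the IL-10 pathway 2 and 3 of 6 genes rose, with the receptor gene Il10ra in both (log2 differences 1.61 and 0.87). Of 11 genes of GARP and TGF-beta activation, Nrros, which tethers latent TGF-beta on myeloid cells, rose in both (1.30 and 0.86). With deletion, Tgfbr2 also rose (0.84), and Smad2 and Tgfb2 fell by 0.69 and 0.68 on the log2 scale. Among ligands of CCR8 and CCR4, Ccl8 rose in both, from 39.8 ± 5.51 to 203 ± 95.1 FPKM at day 15 and from 124 ± 86.5 to 351 ± 192 with deletion. Of 10 neuropilin ligands and coreceptors, Sema4a rose in both (1.71 and 1.45), and Sema3a fell by 1.37 with deletion. At day 11, 0 genes of these lists passed limma's threshold. Over the same comparisons all 8 T-cell markers and all 5 markers of CD8 T cells rose at day 15 and with deletion, and what part they have in these counts was not tested.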

How the data were processed

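Bulk RNA-seq of 46 samples in 8 groups was analysed. Total RNA had been made into stranded libraries after ribosomal RNA removal and read as 50-base paired ends. Per the study's methods, the authors aligned reads with OSA in Omicsoft Array Studio to the Mouse B38 genome with Ensembl gene models, and deposited FPKM per gene in 1 table. The FPKM values keep no read counts, and the methods give only a range of mapped reads over all samples, so the depth per sample is unknown. For this reason the count model of the study was replaced by limma. Groups came from the submitters' labels. The labels do not say that the samples of a group came from separate animals. A legend of the study, for heat maps of these tumors, describes each row as an individual animal. The p-values measure the spread between these samples. The 8 genes and all gene lists were chosen with earlier results of these data known.

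Genes averaging 0.1 FPKM or more across the compared samples were fitted with limma 3.58.1 (R 4.3.3; lmFit, eBayes with trend) on log2(FPKM + 0.1). A gene passed at a Benjamini-Hochberg adjusted p under 0.01 over all genes tested, with no fold limit. Fold changes are on the log2(FPKM + 0.1) scale, which understates the change of low genes. For levels relative to Cd4 or Cd3e, the log2 value of that gene was subtracted from every gene of the same sample before the fit. All genes then share the error of 1 reference gene. For the 8 genes, 2-sided permutation tests over tumors were added after seeing the data (exact for 5 against 5, 100000 resamples for 10 against 10). These tests use the same reference gene, so its own change enters them too, and they were not run for other genes. Named genes were the 8 genes, Cd4, Cd3e and Cd8a whatever their values, at most 3 genes per list and direction with the lowest adjusted p among those that passed, and the 8 genes most like Foxp3. Pdcd1, Flicr, Ccdc22, Il2 and Ikzf5 were named after their values were seen. Ranks and ratios were computed with Python 3.11.15, pandas 2.3.3 and scipy 1.17.1, and the limma script was tested on simulated data. Alternatives comprised the filter, the pseudocount, array weights, a fit without the trend, replicate numbers as blocks, 3 other scalings, 1 fit over all tumor groups, the identifier stretch as a covariate, another reference and leaving out each sample. Values relative to Ccdc22 were added after seeing the data.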

Additional observations from a re-analysis of the deposited data

Results flagged for a closer look

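In 60 combinations of gene and group with 4 to 10 samples, 3 had a sample far from the rest by Dixon's criterion, which chance meets in about 1 of 20. Foxp3 in isotype replicate 1 of day 11 was the lowest of its group at 0.266 FPKM, against 0.729 to 0.911 in the other 4, and this library is the mitochondria-rich one. Il10 in PD-1 Ab replicate 2 of day 11 was the highest at 1.95 FPKM, against 0.887 to 1.13. Cd3e in replicate 3 of the tumors labelled WT was the highest at 5.83 FPKM, against 0.796 to 2.03.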

How the results depend on the processing

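Of 1752 values of the 8 genes under other settings, 1649 kept their side of the threshold and, where past it, their direction; 51 lost the call, 52 gained it and 0 reversed. Counts of the 8 genes that passed moved as follows, and the cause was not tested. With array weights the count was 4 at day 15, 2 at day 11 relative to Cd4, 5 at day 15 relative to Cd4, 8 at day 11 relative to Cd3e and 3 for the difference between antibody and deletion relative to Cd4. With a pseudocount of 1 FPKM the count was 4 for deletion relative to Cd4, 4 at day 11 relative to Cd3e and 8 at day 15 relative to Cd3e. The shares of all genes with that pseudocount are not given here. With the identifier stretch as a covariate the count was 0 for deletion as deposited and relative to Cd4, and 3 relative to Cd3e. Of all genes, 0 passed as deposited, 40.0% relative to Cd4 and 83.0% relative to Cd3e. Leaving out 1 sample gave 1 to 3 at day 15 and for deletion, 0 to 1 at day 11 and 1 to 3 at day 15 relative to Cd4, and 0 to 5, 2 to 5 and 5 to 7 relative to Cd3e. For these fits the shares of all genes are given above only without the mitochondria-rich library. Same-numbered samples did not deviate together (correlations from -0.17 to 0.10), so the numbers do not pair them; with the replicate block the count at day 15 was 0 (Il2ra adjusted p 0.0125, Ikzf4 0.0175), and for deletion relative to Cd4 it was 1. Over all genes, array weights raised the calls at day 15 from 1183 to 4490 and the replicate block lowered them to 326, and for deletion the block lowered them from 3074 to 1671. For deletion relative to Cd4, 61.7% of all genes passed with the block. With a pseudocount of 1 FPKM, Foxp3 and Cd4 in tumors labelled WT had r = 0.70 and Foxp3 and Cd3e in those labelled PD-1cKO r = 0.71, both past the threshold by permutation (adjusted p = 0.0486). With median-of-ratios scaling the latter had rho = 0.85 (adjusted permutation p = 0.0111). Without the depth of each library, the counting error of low values, such as those of Ikzf4 in isotype tumors, could not be given.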
